A study of Mus musculus with 12 samples.

Results

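The genes of DNA replication and mitosis were followed in mouse left ventricles that had lost Ddx5, a DEAD-box RNA helicase with roles in transcription and splicing, from their cardiomyocytes. The set was a list of 48 gene symbols taken as given and looked up in both deposited count tables, which held 17260 and 17325 genes. It was divided by role into 18 replication genes, 24 mitosis genes and 6 regulators of cell cycle entry and checkpoints. RNA was sequenced from 12 libraries in 4 groups of 3, all from left ventricles of males. The mCKO group carried the genotype DDX5fl/fl MYH6Cre+ and was sampled at 8 weeks of age without treatment, and its control, CTR1, was Ddx5flox/flox at the same age without Cre. The iCKO group carried Ddx5flox/flox with Myh6MerCreMer, a Cre that tamoxifen activates, and received tamoxifen intraperitoneally at 20 mg/kg/day for 5 days. Its control, CTR2, was Ddx5flox/flox with the same tamoxifen and no Cre. The design text gives 7 days for the induced model without stating where the count starts, and no age beyond matching. All 4 groups carried the floxed allele, and the Myh6 promoter confines either Cre to cardiomyocytes, so other cells of the ventricle were not targeted. Neither control carried a Cre, so an effect of Cre itself cannot be told apart from one of Ddx5 loss.

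Replication begins when CDC6 and CDT1 load the MCM2-7 ring on origins, and when CDC45 and the GINS complex then turn that ring into a moving helicase. After replication, CDK1 with cyclins A and B drives entry into mitosis, where Aurora and Polo kinases, kinesins, kinetochore proteins and the cytokinesis machinery build the spindle, check it and divide the cell. Adult mouse cardiomyocytes have for the most part left the cell cycle, whereas the macrophages, fibroblasts and endothelial cells of the heart can still divide. In bulk tissue, more cells of a cycling type and more RNA per cell cannot be told apart.

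Library totals lay between 19682268 and 25871882 counts, so 1 count was worth 0.0352 to 0.0522 CPM (counts scaled to a common library size, here with the trimmed mean of M values, TMM), and a count of 0 allows up to 3 counts, or 0.106 to 0.157 CPM, for counting error only. The 48 genes together took 0.0419% to 0.0681% of the counts in iCKO, against 0.0212% to 0.0232% in CTR2, and 0.0267% to 0.0314% in mCKO, against 0.0205% to 0.0253% in CTR1. Ddx5 had 216, 219 and 192 CPM in iCKO, against 566, 697 and 597 CPM in CTR2, and 233, 232 and 218 CPM in mCKO, against 636, 636 and 397 CPM in CTR1, so no knockout library overlapped its controls. In each group 1 library stood apart from the other two across the whole table, by a chi-square of the counts per degree of freedom. For mCKO replicate 3 it was 121 and 106 against the others, which differed by 9.16, and for CTR1 replicate 3 it was 78.6 and 83.1, beside 6.25. For iCKO replicate 3 it was 139 and 107, beside 22.3, and for CTR2 replicate 2 it was 48.3 and 36.5, beside 10.96. The labels do not say whether the libraries of a group came from separate animals, and p-values then measure the spread between these libraries. The 8 cardiomyocyte markers summed to between 47590 and 102200 CPM in the 12 libraries, the largest sum of any marker list.

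In iCKO ventricles 43 of the 48 genes rose and 1 fell, at an adjusted p under 0.05 in edgeR's quasi-likelihood test over the 13548 genes tested. Of all genes tested, 25.2% rose and 19.5% fell. The mitosis genes had the larger fold changes. Their median log2 fold change was 2.43 over 24 genes, with 23 higher and Cenpf lower, and that of the replication genes was 1.48 over 18 genes, with 15 higher and none lower, beside 0.03 over all genes tested. Of the 6 regulators, 5 rose, with a median of 1.76 over all 6. A log2 fold change over 2 was reached by 17 of 24 mitosis genes, 5 of 18 replication genes and 2 of 6 regulators, and by 818 of the 13548 genes. Genes that were called higher with a log2 fold change of at least 1 were 38 of the 48, beside 15% of all genes tested. The gene lists and the comparison were chosen with earlier results of these data known, so these counts and medians are descriptions of the lists. After each gene below, the value in brackets is the log2 fold change with its standard error, and n = 3 libraries per group.

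**Figure D1:**
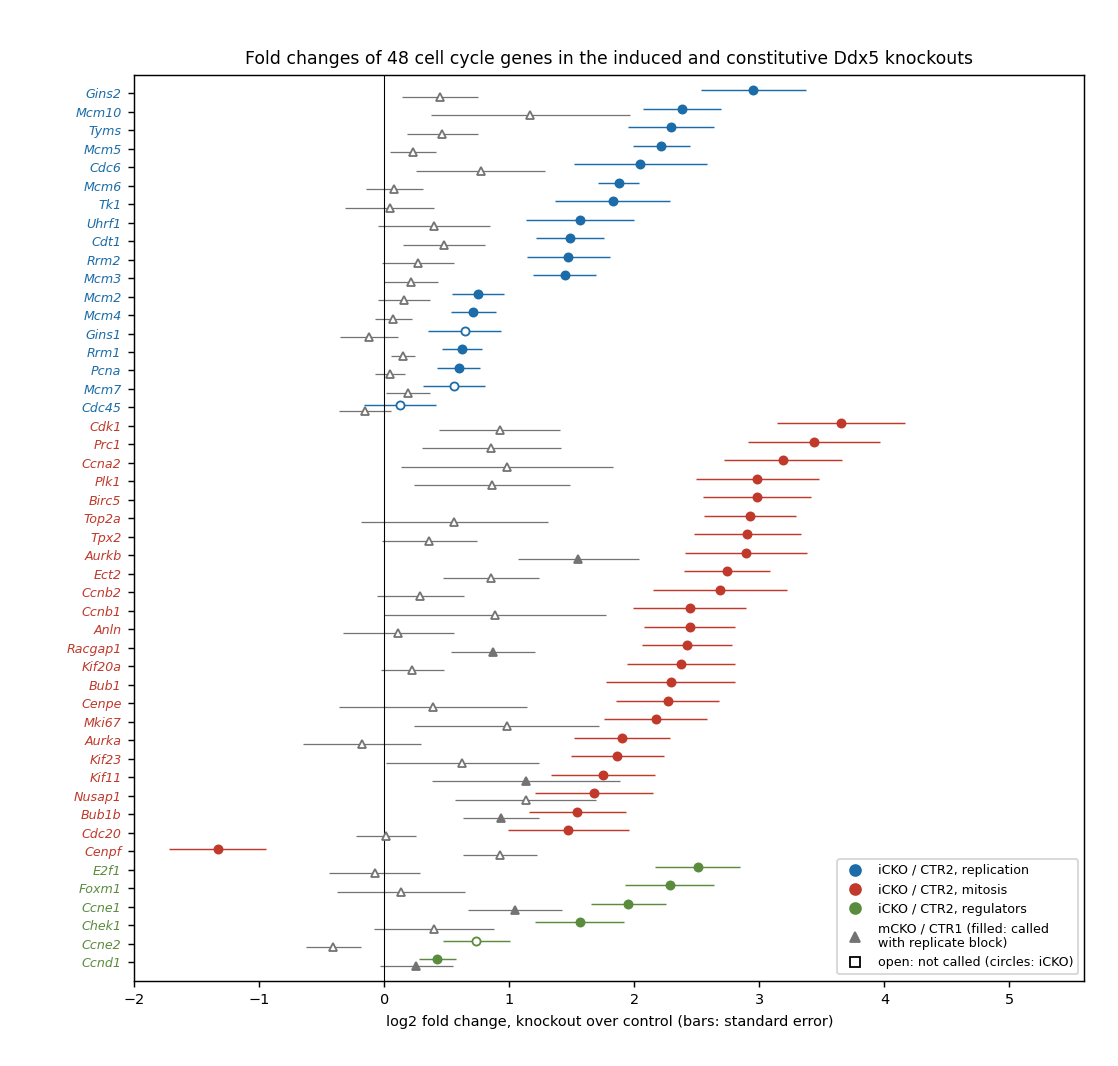
Log2 fold change (x axis) of each of the 48 genes (y axis, ordered within role by the iCKO value) for iCKO over CTR2 (circles) and mCKO over CTR1 (triangles), with bars for the standard error of the fits without a replicate block. Filled circles are the 44 genes called in iCKO, filled triangles the 6 called in mCKO with the replicate block, and the mitosis circles lie mostly beyond 2 whereas Cenpf is the only circle below 0.

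The promoter letters of the genes are shown because the replication and mitosis genes differ in them. The CCAAT box and the cell cycle homology region (CHR) are known from promoters of late cell cycle genes, and E2F sites from those of genes used at the start of replication. RefSeq windows on GRCm38, from 250 bases before to 50 after an annotated start, were matched for 38 of the 48 genes (42 windows). Both strands were searched for the CHR letters TTTGAA and TTCGAA, for CCAAT, and for the E2F letters TTTGGCGC or TTTCCCGC or TTTGCCGC or TTTCGCGC. A CHR match lay in 18 of 22 windows of mitosis genes (81.8%), in 3 of 17 windows of replication genes (17.6%) and in 19.2% of all 32851 windows. CCAAT was found in 86.4% of mitosis windows, 76.5% of replication windows and 37.4% of all windows. An E2F match lay in 1 mitosis window (4.55%), in 7 replication windows (41.2%) and in 2.26% of all windows. The 3 regulator windows, of Ccne1, Chek1 and E2f1, held none of these letters and are not printed. Overlapping matches were counted as separate sites, and a match describes letters, not a bound site. The mitosis windows belong to 20 genes and the replication windows to 15. The overlapping windows of Ect2, and those of Prc1, hold the same matches and were counted separately. The stretches below are those nearest upstream of the annotated gene for the 3 replication genes and the 3 mitosis genes with the smallest adjusted p in iCKO among those whose stretch in the first listed window lies mostly outside the annotated gene, and for Cenpf, the gene that fell, each written 5′ to 3′ on the strand of the gene with matches in capitals. Their places on GRCm38 are Mcm6 at chr1:128359706-128359865 on the minus strand, Mcm5 at chr8:75109349-75109467 on the plus strand, Mcm10 at chr2:5012792-5012951 on the minus strand, Top2a at chr11:99024200-99024349 on the minus strand, Cdk1 at chr10:69352913-69353072 on the minus strand, Birc5 at chr11:117849077-117849236 on the plus strand and Cenpf at chr1:189688108-189688246 on the minus strand.
Mcm6: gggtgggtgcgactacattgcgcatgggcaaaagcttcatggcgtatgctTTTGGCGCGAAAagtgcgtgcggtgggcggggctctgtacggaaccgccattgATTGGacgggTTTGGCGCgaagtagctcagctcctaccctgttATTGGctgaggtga
Mcm5: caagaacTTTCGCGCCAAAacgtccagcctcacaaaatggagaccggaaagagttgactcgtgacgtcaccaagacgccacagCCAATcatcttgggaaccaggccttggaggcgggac
Mcm10: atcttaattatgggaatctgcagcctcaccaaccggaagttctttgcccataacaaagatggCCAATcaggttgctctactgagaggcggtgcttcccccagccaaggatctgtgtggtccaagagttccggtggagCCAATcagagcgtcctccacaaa
Top2a: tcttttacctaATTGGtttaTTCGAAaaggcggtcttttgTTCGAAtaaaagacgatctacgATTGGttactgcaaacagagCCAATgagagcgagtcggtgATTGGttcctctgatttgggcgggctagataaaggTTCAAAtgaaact
Cdk1: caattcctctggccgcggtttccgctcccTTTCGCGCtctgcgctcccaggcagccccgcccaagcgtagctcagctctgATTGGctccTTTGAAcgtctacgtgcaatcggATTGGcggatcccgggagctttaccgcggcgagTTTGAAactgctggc
Birc5: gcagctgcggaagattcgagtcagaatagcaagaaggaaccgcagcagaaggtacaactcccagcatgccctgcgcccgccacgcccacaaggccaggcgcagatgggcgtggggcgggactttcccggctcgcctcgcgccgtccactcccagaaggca
Cenpf: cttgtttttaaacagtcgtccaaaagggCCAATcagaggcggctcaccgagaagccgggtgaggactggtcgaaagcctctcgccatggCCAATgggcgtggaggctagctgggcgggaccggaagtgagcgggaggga
Mcm6 and Mcm5 show E2F letters beside CCAAT, and Mcm10 shows CCAAT on its own. Top2a and Cdk1 show several CHR and CCAAT matches, and Cdk1 adds the single E2F match found among the mitosis windows. Birc5 had none of the 3 kinds in its whole window, and Cenpf had CCAAT here and a CHR match just past its start.

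Among the genes that load and start the replicative helicase, 9 of 12 rose in iCKO (adjusted p 1.1e-04 to 0.019), and within the MCM ring the log2 fold changes ran from 0.56 for Mcm7 to 2.22 for Mcm5. Mcm5 had 14.9, 21.2 and 20.4 CPM in iCKO, against 3.09, 4.57 and 4.49 CPM in CTR2 (2.22 ± 0.23). Mcm6 had 31.7, 35.6 and 38.4 CPM in iCKO, against 8.86, 10.97 and 8.98 CPM in CTR2 (1.87 ± 0.16). Mcm3 had 13.04, 20.7 and 19.97 CPM in iCKO, against 7.03, 7.91 and 4.79 CPM in CTR2 (1.44 ± 0.25). For these 3 ring subunits every iCKO library exceeded every CTR2 library. Mcm2 had 11.8, 17.3 and 14.7 CPM in iCKO, against 10.4, 7.25 and 8.36 CPM in CTR2 (0.75 ± 0.21). Mcm4 had 21.4, 24.6 and 20.3 CPM in iCKO, against 11.2, 16.1 and 13.01 CPM in CTR2 (0.71 ± 0.18). Mcm7 had 16.2, 21.2 and 24.5 CPM in iCKO, against 10.7, 18.7 and 12.6 CPM in CTR2 (0.56 ± 0.25). Mcm2 and Mcm4 rose by less than the other called subunits without overlap of the groups, while for Mcm7 the highest CTR2 library lay above the lowest iCKO library and the test was not passed (adjusted p = 0.096). Mcm10 had 2.19, 2.71 and 2.38 CPM in iCKO, against 0.557, 0.424 and 0.408 CPM in CTR2 (2.38 ± 0.31). MCM10 helps to activate the helicase. Cdc6 had 1.35, 3.28 and 2.91 CPM in iCKO, against 0.304, 1.08 and 0.408 CPM in CTR2 (2.05 ± 0.53). Cdt1 had 4.24, 5.39 and 6.33 CPM in iCKO, against 1.42, 2.21 and 2.04 CPM in CTR2 (1.49 ± 0.27). CDC6 and CDT1 are the loaders of the ring, and for both genes the groups did not overlap.

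The activators of the helicase gave unlike values. Gins2 had 2.48, 4.09 and 5.404 CPM in iCKO, against 0.709, 0.518 and 0.306 CPM in CTR2 (2.95 ± 0.42). Its log2 fold change was the highest of the replication genes, but 67.3% of its exon length is shared with Gse1 on the opposite strand, and whether counting used the strand is not given in the sources used here. Gins1 had 3.47, 3.17 and 4.73 CPM in iCKO, against 2.02, 3.202 and 2.04 CPM in CTR2 (0.64 ± 0.29). Cdc45 had 2.995, 5.32 and 6.37 CPM in iCKO, against 4.71, 4.52 and 4.23 CPM in CTR2 (0.13 ± 0.29). Neither Gins1 (adjusted p = 0.1), which encodes another subunit of the same complex, nor Cdc45 (adjusted p = 0.75) passed the test, and both overlapped between the groups.

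The genes for nucleotide supply and for the moving fork all rose (adjusted p 0.0011 to 0.021), with Pcna and Rrm1 changing least. Pcna had 49.1, 56.8 and 69.3 CPM in iCKO, against 39.2, 42.6 and 34.3 CPM in CTR2 (0.60 ± 0.17). Rrm1 had 29.8, 39.4 and 40.1 CPM in iCKO, against 22.8, 23.6 and 24.7 CPM in CTR2 (0.62 ± 0.16). PCNA is the sliding clamp of the replicative polymerases and RRM1 the constant subunit of ribonucleotide reductase, and neither gene overlapped between the groups. Rrm2 had 5.08, 9.301 and 11.6 CPM in iCKO, against 3.85, 3.06 and 2.45 CPM in CTR2 (1.47 ± 0.33). Tyms had 5.11, 8.24 and 11.3 CPM in iCKO, against 2.08, 1.27 and 1.68 CPM in CTR2 (2.29 ± 0.34). Tk1 had 2.301, 6.59 and 8.27 CPM in iCKO, against 1.87, 1.22 and 1.73 CPM in CTR2 (1.83 ± 0.46). RRM2 is the subunit of ribonucleotide reductase that cycles with replication, TYMS makes thymidylate, and TK1 salvages thymidine. Uhrf1 had 7.23, 13.3 and 11.2 CPM in iCKO, against 2.94, 6.07 and 1.68 CPM in CTR2 (1.56 ± 0.43). UHRF1 recruits DNA methyltransferase to newly copied DNA. In all 6 genes the lowest iCKO library was replicate 1, and it still exceeded the highest CTR2 library.

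The genes that carry cells into and through mitosis rose in iCKO, among them the gene with the highest log2 fold change of the set (adjusted p 5.1e-04 to 0.0048). Cdk1 had 3.69, 7.36 and 13.4 CPM in iCKO, against 0.759, 0.706 and 0.459 CPM in CTR2 (3.65 ± 0.51). Ccna2 had 4.53, 14.02 and 14.8 CPM in iCKO, against 1.26, 1.46 and 0.918 CPM in CTR2 (3.19 ± 0.47). Ccnb1 had 2.08, 5.71 and 6.82 CPM in iCKO, against 0.962, 0.848 and 0.867 CPM in CTR2 (2.44 ± 0.45). CDK1 is the mitotic kinase, and cyclins A2 and B1 are its partners. Cdk1 was that gene, although its 3 iCKO libraries differed widely. Ccnb2 had 1.42, 4.02 and 5.74 CPM in iCKO, against 0.455, 0.753 and 0.5100 CPM in CTR2 (2.68 ± 0.54). Plk1 had 2.19, 6.27 and 7.64 CPM in iCKO, against 0.658, 0.8005 and 0.561 CPM in CTR2 (2.98 ± 0.49). Aurka had 2.52, 3.91 and 4.58 CPM in iCKO, against 1.47, 0.612 and 0.867 CPM in CTR2 (1.901 ± 0.39). Ccnb2 encodes a further cyclin B, PLK1 acts at centrosomes, kinetochores and in cytokinesis, and Aurora A acts at the spindle poles. Aurkb had 2.01, 5.18 and 4.99 CPM in iCKO, against 0.506, 0.8005 and 0.306 CPM in CTR2 (2.896 ± 0.49). Birc5 had 2.15, 3.45 and 5.44 CPM in iCKO, against 0.557, 0.471 and 0.357 CPM in CTR2 (2.98 ± 0.43). Aurora B and survivin, the product of Birc5, belong to the chromosomal passenger complex. Mki67 had 15.3, 34.8 and 27.4 CPM in iCKO, against 3.39, 9.18 and 4.59 CPM in CTR2 (2.17 ± 0.41). Top2a had 11.2, 28.7 and 23.1 CPM in iCKO, against 2.48, 3.53 and 2.24 CPM in CTR2 (2.93 ± 0.37). Ki-67 coats mitotic chromosomes and topoisomerase II alpha untangles them. All 10 genes were lowest in iCKO replicate 1 among the iCKO libraries, and none overlapped CTR2.

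Genes of the kinetochore and the spindle checkpoint did not all move the same way. Bub1 had 1.31, 4.69 and 3.801 CPM in iCKO, against 0.607, 0.471 and 0.918 CPM in CTR2 (2.29 ± 0.52). Bub1b had 3.58, 8.03 and 8.05 CPM in iCKO, against 1.57, 3.15 and 1.99 CPM in CTR2 (1.54 ± 0.39). Cenpe had 2.26, 6.09 and 5.29 CPM in iCKO, against 0.8097, 0.895 and 1.12 CPM in CTR2 (2.27 ± 0.41). BUB1 and BUBR1, the product of Bub1b, hold the checkpoint signal and CENP-E is a kinetochore motor; the 3 genes rose (adjusted p 0.0028 to 0.012) with no overlap of the groups. Cdc20 had 2.37, 6.800 and 10.4 CPM in iCKO, against 2.08, 2.92 and 2.04 CPM in CTR2 (1.47 ± 0.48). CDC20 activates the anaphase-promoting complex. Its gene rose (adjusted p = 0.036), but iCKO replicate 1 lay below CTR2 replicate 2. Cenpf had 11.7, 11.1 and 6.37 CPM in iCKO, against 33.5, 11.7 and 28.4 CPM in CTR2 (-1.33 ± 0.39). CENP-F, a large protein of the nuclear matrix and the outer kinetochore, was the product of the single gene that fell (adjusted p = 0.023). CTR2 replicates 1 and 3 were well above every iCKO library, while CTR2 replicate 2 lay among them, just below iCKO replicate 1. The call for Cenpf was lost on leaving out iCKO replicate 2 or 3 or CTR2 replicate 1 or 3, with log2 fold changes of -1.67 to -1.04 over the 6 fits that leave out a library.

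All 9 genes for spindle assembly and cytokinesis rose in iCKO (adjusted p 5.2e-04 to 0.02) and none overlapped CTR2. Tpx2 had 5.22, 11.4 and 12.9 CPM in iCKO, against 1.16, 1.93 and 0.816 CPM in CTR2 (2.905 ± 0.43). Kif11 had 2.702, 8.46 and 7.602 CPM in iCKO, against 1.67, 2.12 and 1.78 CPM in CTR2 (1.75 ± 0.42). Nusap1 had 1.68, 4.02 and 4.55 CPM in iCKO, against 0.962, 1.601 and 0.612 CPM in CTR2 (1.68 ± 0.47). TPX2 nucleates spindle microtubules and activates Aurora A, KIF11 is the motor that pushes the spindle poles apart, and NUSAP1 bundles spindle microtubules. Prc1 had 4.49, 12.9 and 10.9 CPM in iCKO, against 0.607, 1.51 and 0.459 CPM in CTR2 (3.44 ± 0.53). Kif20a had 3.58, 9.05 and 10.96 CPM in iCKO, against 1.11, 1.88 and 1.53 CPM in CTR2 (2.37 ± 0.43). Kif23 had 2.78, 6.06 and 5.37 CPM in iCKO, against 1.16, 1.74 and 0.969 CPM in CTR2 (1.87 ± 0.37). PRC1 crosslinks the midzone of the spindle, where the kinesins KIF20A and KIF23 act. Racgap1 had 5.33, 11.3 and 11.7 CPM in iCKO, against 1.62, 2.31 and 1.33 CPM in CTR2 (2.42 ± 0.36). Ect2 had 3.03, 5.46 and 4.17 CPM in iCKO, against 0.455, 0.659 and 0.765 CPM in CTR2 (2.74 ± 0.35). Anln had 4.89, 12.8 and 10.9 CPM in iCKO, against 1.87, 1.74 and 1.63 CPM in CTR2 (2.44 ± 0.36). RACGAP1 forms the centralspindlin complex with KIF23 and recruits ECT2, which activates RhoA, and anillin scaffolds the contractile ring. Exons on the opposite strand overlap 29.3% of Kif20a (Cdc23) and 11.1% of Prc1 (Rccd1), which leaves their counts uncertain, as for Ccna2 with 12.5% (Exosc9).

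Of the 6 regulators, 4 rose by more than 1 on the log2 scale in iCKO. E2f1 had 3.43, 5.88 and 5.44 CPM in iCKO, against 1.11, 0.612 and 0.867 CPM in CTR2 (2.51 ± 0.34). Foxm1 had 3.98, 8.702 and 8.05 CPM in iCKO, against 1.06, 1.601 and 1.58 CPM in CTR2 (2.28 ± 0.35). Ccne1 had 4.13, 4.404 and 5.67 CPM in iCKO, against 1.52, 1.32 and 0.816 CPM in CTR2 (1.95 ± 0.30). E2F1 activates replication genes, FOXM1 activates late cell cycle genes, and cyclin E1 with CDK2 starts replication. Chek1 had 1.13, 1.69 and 1.901 CPM in iCKO, against 0.607, 0.424 and 0.561 CPM in CTR2 (1.56 ± 0.36). CHK1 is the kinase of the replication checkpoint. Ccnd1 had 46.05, 56.4 and 49.3 CPM in iCKO, against 42.2, 36.8 and 33.97 CPM in CTR2 (0.43 ± 0.15). Cyclin D1, a partner of early cell cycle kinases, had an adjusted p of 0.047, whereas the other 4 called regulators had 7.0e-04 to 0.0081. Ccne2 had 3.65, 5.92 and 4.32 CPM in iCKO, against 2.48, 2.54 and 3.31 CPM in CTR2 (0.74 ± 0.26). The second cyclin E gene just missed the threshold (adjusted p = 0.05) although its groups did not overlap. Opposite-strand exons cover 23.4% of Ccnd1 (LTO1) and 17.4% of Ccne2 (Ints8).

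Counted by library, 43 of the 48 genes had all 3 iCKO libraries above all 3 CTR2 libraries, beside 31.9% of the 13548 genes tested, and 0 had them all below, beside 27% of those genes. The 5 genes with overlap were Mcm7, Gins1, Cdc45, Cdc20 and Cenpf. In the smaller changes the call depended on single libraries. Of the 44 called genes, 34 were called in each of the 6 fits that left out a library. Without iCKO replicate 3, the library that stood apart in its group, 40 of the 48 genes were called higher and 0 lower, with medians of 2.17 for mitosis and 1.31 for replication genes. Without CTR2 replicate 2 the counts were 42 and 1, and the medians 2.62 and 1.61. Apart from Cenpf, the calls lost were those of Mcm2 (without iCKO replicate 2, CTR2 replicate 2 or CTR2 replicate 3), Mcm4, Pcna and Cdc6 (each without iCKO replicate 2, CTR2 replicate 1 or CTR2 replicate 3), Rrm1 (without iCKO replicate 2 or CTR2 replicate 1), Uhrf1 (without iCKO replicate 2 or 3 or CTR2 replicate 1), Nusap1 (without iCKO replicate 2 or 3 or CTR2 replicate 1 or 3), and Cdc20 and Ccnd1. Cdc20 kept its call only without iCKO replicate 1, and Ccnd1 only without iCKO replicate 3. With library totals in place of TMM, 46 genes were called higher and 1 lower, while 33.9% of all genes were called higher and 13.5% lower and the median of all genes shifted to 0.24.

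**Figure D2:**
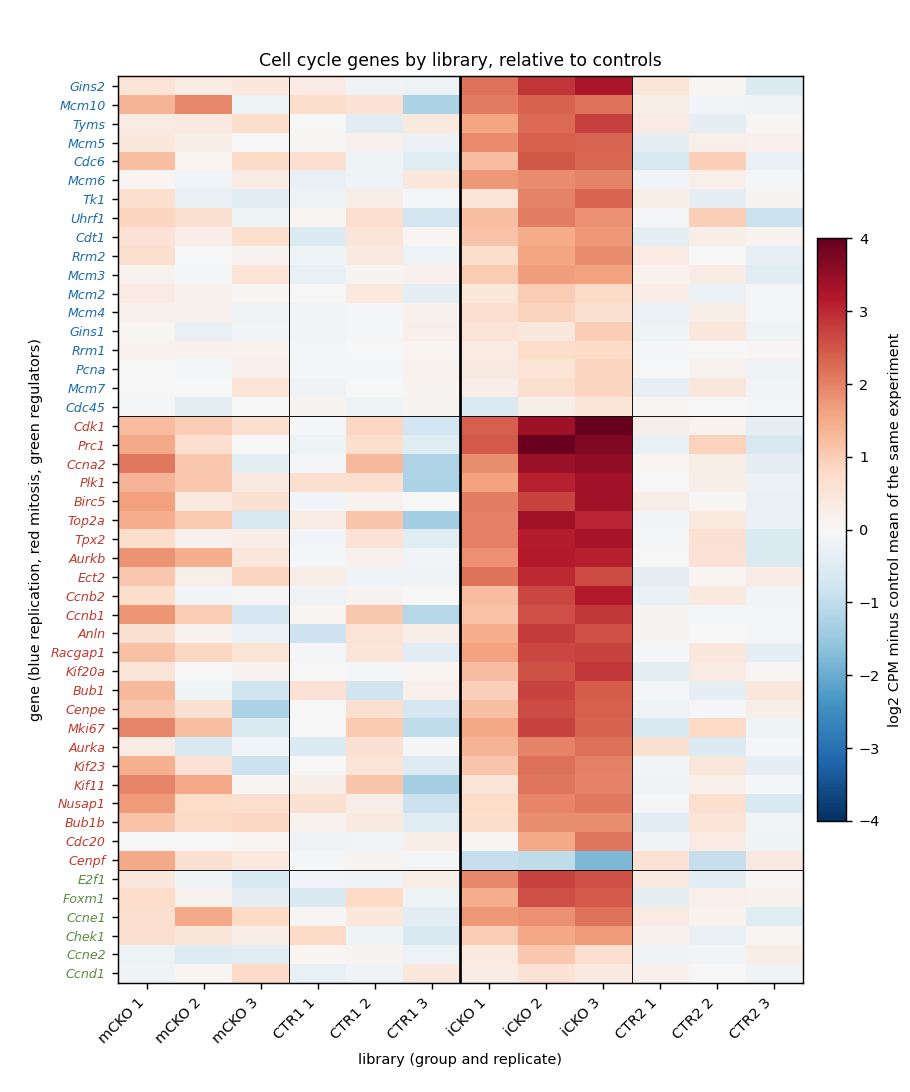
Log2 CPM of each gene (rows) in each of the 12 libraries (columns), relative to the control mean of the same experiment, with CTR1 as the control of mCKO and CTR2 of iCKO. The iCKO columns are red for nearly every gene and palest in replicate 1, Cenpf is the blue line among them, and mCKO replicate 1 is the reddest mCKO column for mitosis genes.

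The 3 iCKO libraries differed more in mitosis than in replication genes. The mean log2 CPM of the 24 mitosis genes, relative to the CTR2 mean, was 1.34, 2.55 and 2.59 in iCKO replicates 1, 2 and 3, against -0.06, 0.23 and -0.17 in CTR2. For the 18 replication genes the same mean was 0.96, 1.53 and 1.64 in iCKO, against -0.02, 0.18 and -0.16 in CTR2. The mitosis mean thus exceeded the replication mean in each iCKO library, by 0.38, 1.02 and 0.95, against -0.04, 0.05 and -0.01 in CTR2. Replicate 1 was the lowest iCKO library for 23 of 24 mitosis genes, 16 of 18 replication genes and 6 of 6 regulators. Its level was a median 0.396 times the mean of replicates 2 and 3 for mitosis genes and 0.714 times for replication genes. Taken on its own against the CTR2 mean, iCKO replicate 1 had a median ratio of 2.62 for mitosis genes and 1.80 for replication genes, and replicates 2 and 3 had 6.70 and 3.23.

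**Figure D3:**
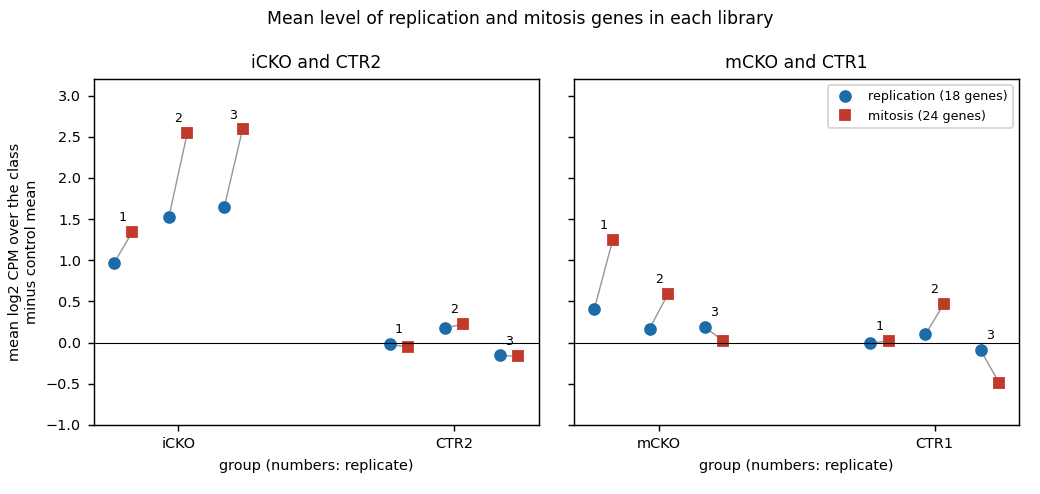
Mean log2 CPM of the 18 replication genes (circles) and the 24 mitosis genes (squares) in each library, relative to the control mean of the same experiment, for iCKO and CTR2 (left panel) and mCKO and CTR1 (right panel), with the replicate number above each pair. The squares lie above the circles in all 3 iCKO libraries, and in mCKO only for replicates 1 and 2.

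Per kilobase of exon, replication genes were the more abundant class in both iCKO and CTR2. The median level of the replication genes was 2.49 CPM per kb in iCKO (0.316 to 24.3), against 1.18 CPM per kb in CTR2 (0.0602 to 16.1). For the mitosis genes it was 1.36 CPM per kb in iCKO (0.528 to 3.49), against 0.255 CPM per kb in CTR2 (0.104 to 1.59). The larger fold changes of mitosis genes thus stood on lower control levels, and levels this low rest on few counts. Lengths were the union of exons in GENCODE M21.

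Other cell cycle genes were taken from lists of genes outside the 48, and the lists were not tested against each other. Of all genes tested in iCKO, 25.2% rose and 19.5% fell. Of 59 other mitotic genes tested, 47 rose and 4 fell in iCKO, with a median log2 fold change of 2.25. Those with the smallest adjusted p were Sgo2a, which protects centromere cohesion and fell (-2.04 ± 0.20, adjusted p = 1.8e-04), and Spag5 (2.98 ± 0.38, adjusted p = 5.7e-04), Cep55 (3.01 ± 0.42, adjusted p = 8.1e-04) and Ckap2 (3.86 ± 0.54, adjusted p = 8.4e-04), which serve the spindle and the midbody. Pttg1 (securin), Cenpa (the centromeric histone) and Ncapd3 (a condensin subunit) were the other genes that fell. Some of these mitotic genes passed the count filter only through iCKO. Cep55 had 5, 9 and 7 counts and Ckap2 4, 6 and 6 counts in CTR2. A gene this low that had not risen would have been left out, which favors rises among the genes tested. The count and median of this list are therefore descriptions only. Of 39 other replication genes tested, 15 rose and 3 fell, with a median of 0.35. Gmnn, whose product geminin holds CDT1 inactive, fell (-1.84 ± 0.21, adjusted p = 3.4e-04), with 8.98, 9.51 and 13.6 CPM in iCKO, against 44.9, 37.5 and 32.7 CPM in CTR2, while Cdt1 itself rose. Prim1 (primase, 1.66 ± 0.29, adjusted p = 0.0022), Lig1 (DNA ligase I, 1.395 ± 0.24, adjusted p = 0.0023) and Wdhd1 (a fork protein, 1.63 ± 0.28, adjusted p = 0.0023) rose.

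Genes that restrain or start the cycle were mixed in iCKO. Of 24 genes tested from a list of inhibitors, 10 rose and 7 fell (median 0.29), beside 25.2% and 19.5% of all genes tested. The list includes Lin9, Lin37, Lin52 and Lin54, so it does not hold inhibitors only. Btg2, an antiproliferative gene, rose (2.503 ± 0.24, adjusted p = 1.7e-04), as did Gadd45b, a stress gene (1.61 ± 0.19, adjusted p = 4.0e-04), and Btg1 (1.12 ± 0.15, adjusted p = 6.5e-04), while Tob2 fell (-1.21 ± 0.15, adjusted p = 5.3e-04). Of 11 early cyclins, kinases and activators, 6 rose and none fell (median 0.62). These included Myc (2.38 ± 0.34, adjusted p = 8.8e-04), Cdk4, the partner of cyclin D (0.88 ± 0.15, adjusted p = 0.0025), and Mnat1 (1.47 ± 0.27, adjusted p = 0.0031) and Cdk7 (0.66 ± 0.15, adjusted p = 0.0084), parts of the CDK-activating kinase.

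Markers of other cell types moved beside the cell cycle genes in iCKO, where 25.2% of all genes tested rose and 19.5% fell. All 10 macrophage markers rose, with a summed level of 973 to 1961 CPM in iCKO, against 362 to 478 CPM in CTR2. Among 8 fibroblast markers 5 rose and 1 fell, and their sum was 3743 to 6080 CPM in iCKO, against 869 to 1024 CPM in CTR2. All 3 neutrophil markers tested rose (27.0 to 67.9 CPM in iCKO, against 4.95 to 13.04 CPM in CTR2), although Ly6g was at 0 in 8 of the 12 libraries. No endothelial marker rose and 4 of 8 fell (957 to 1068 CPM in iCKO, against 1288 to 1524 CPM in CTR2). Of the 8 cardiomyocyte markers, 6 fell and none rose (47590 to 56650 CPM in iCKO, against 87420 to 98840 CPM in CTR2). All 5 erythroid markers tested fell, with sums that overlapped, at 60.1, 63.8 and 260.5 CPM in iCKO, against 416, 1171 and 257 CPM in CTR2, where replicate 2 was far above the others. Of 6 pericyte and smooth muscle markers 3 rose and 2 fell, none of 4 epicardial or 2 Schwann cell markers tested was called, and of the lymphocyte markers 1 was tested and not called. The summed mitosis genes stood at 102.0 to 232 CPM in iCKO, against 53.8 to 61.6 CPM in CTR2, and the replication genes at 225 to 318 CPM, against 128 to 155 CPM. The mitosis sums include Cenpf, which went the other way. It supplied 33.5, 11.7 and 28.4 CPM of the CTR2 sums of 61.6, 53.8 and 56.0 CPM. In iCKO it supplied 11.7, 11.1 and 6.37 CPM. The library order was not shared by all lists, since iCKO replicate 1 was lowest for mitosis, macrophage and fibroblast sums but replicate 3 was highest for macrophages and replicate 2 for fibroblasts. Which cells held the cell cycle transcripts, and the part of cell numbers in the result, was not tested.

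**Figure D4:**
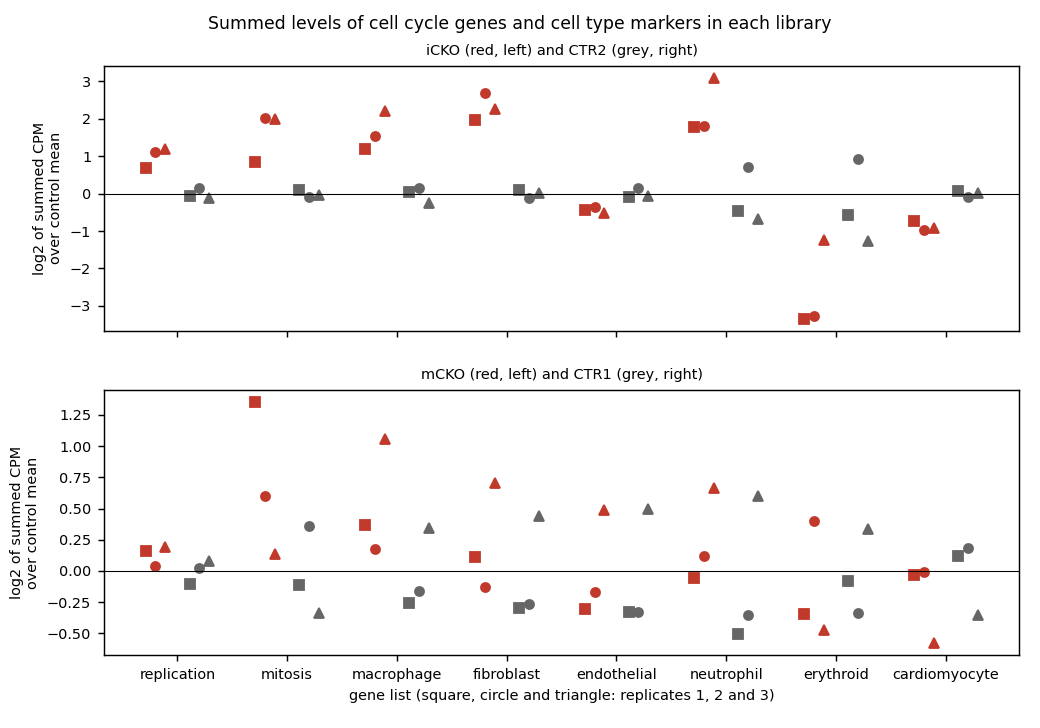
Log2 of the summed CPM of each gene list over its control mean, in each library, for iCKO and CTR2 (upper panel) and mCKO and CTR1 (lower panel, on its own scale), with knockouts in red and controls in grey and the replicate given by the symbol. The mitosis sums include Cenpf, at 33.5 and 28.4 CPM in CTR2 replicates 1 and 3 and 45.96 CPM in mCKO replicate 1. In iCKO the replication, mitosis, macrophage, fibroblast and neutrophil sums lie above 0 and the cardiomyocyte sums below it. In the lower panel replicate 3 is the highest library of either group for macrophages and the lowest of either group for mitosis genes, although for mitosis genes mCKO replicate 3 lies above 0.

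In mCKO ventricles, whose cardiomyocytes carried Cre throughout, few of the same genes were called against CTR1. Without a replicate block, 0 of the 46 genes that passed the count filter were called by edgeR, as were 0 of all 13353 genes tested. At an unadjusted p under 0.05 in edgeR there were 5 genes, all higher, beside 8.72% of genes tested. DESeq2 called 0 of the 46 genes, although it called 1.32% of all genes higher and 1% lower. Limma-voom called 0 of the 46 and 0 of all genes. Libraries of mCKO and CTR1 numbered 3 shifted together across genes, with a correlation of 0.823 in deviations from group means. Those numbered 1 and 2 correlated within a number (0.464 and 0.532) much as across numbers (0.553 and 0.529), so they are not shown to be pairs. With the replicate number as a block 6 genes rose and 0 fell, beside 7.32% and 6.45% of genes tested. The 6 were Aurkb, Bub1b, Kif11, Racgap1, Ccnd1 and Ccne1, that is 4 mitosis genes, 2 regulators and no replication gene. Median log2 fold changes without the block were 0.86 for 22 mitosis genes, 0.20 for 18 replication genes and 0.19 for 6 regulators, beside 0.01 over all genes. Of the 46 genes 41 had a log2 fold change above 0, beside 51.4% of all genes. The calls depended on replicate 3: without that pair none of the 48 genes was called, with or without the block. Without the block, 3.85% of all genes were then called higher and 3.94% lower. Without the pair of replicate 1 the block called 3 genes (Cenpf, Ccnd1 and Ccne1), and without the pair of replicate 2 it called 5 (Mki67, Ccna2, Bub1b, Kif11 and Racgap1). The share of all genes called in the blocked fits without a pair is not given here. Their counts therefore do not show whether these genes were called more often than others.

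The 6 genes called in mCKO with the block had the following levels, with the blocked log2 fold change in brackets. Aurkb had 1.31, 1.005 and 0.462 CPM in mCKO, against 0.293, 0.366 and 0.278 CPM in CTR1 (1.51 ± 0.44, adjusted p = 0.044). Bub1b had 2.76, 2.11 and 2.23 CPM in mCKO, against 1.32, 1.57 and 0.834 CPM in CTR1 (0.95 ± 0.27, adjusted p = 0.04). Racgap1 had 3.15, 2.46 and 2.02 CPM in mCKO, against 1.27, 1.93 and 0.974 CPM in CTR1 (0.89 ± 0.26, adjusted p = 0.047). For these 3 mitosis genes all mCKO libraries lay above all CTR1 libraries. Kif11 had 3.07, 2.26 and 0.756 CPM in mCKO, against 0.8804, 1.67 and 0.232 CPM in CTR1 (1.18 ± 0.34, adjusted p = 0.043). Its groups overlapped, because mCKO replicate 3 lay below CTR1 replicates 1 and 2, and the difference showed within each number. Ccne1 had 1.88, 3.57 and 2.14 CPM in mCKO, against 1.22, 1.62 and 0.834 CPM in CTR1 (1.04 ± 0.26, adjusted p = 0.023). Ccnd1 had 50.3, 58.6 and 93.5 CPM in mCKO, against 44.7, 50.2 and 74.5 CPM in CTR1 (0.24 ± 0.07, adjusted p = 0.032). The cyclin E1 gene did not overlap between the groups, while cyclin D1 was high in replicate 3 of both groups and overlapped.

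The other mitosis genes in mCKO are given with the log2 fold change without the block, and none passed the test. Replicate 1 was the highest mCKO library for 23 of 24 mitosis genes, the exception being Cdc20. Mki67 had 8.67, 5.13 and 1.47 CPM in mCKO, against 2.15, 4.596 and 1.02 CPM in CTR1 (0.98 ± 0.74). Top2a had 4.64, 3.42 and 1.01 CPM in mCKO, against 2.005, 3.603 and 0.556 CPM in CTR1 (0.56 ± 0.75). Cdk1 had 1.58, 1.31 and 1.01 CPM in mCKO, against 0.587, 1.15 and 0.325 CPM in CTR1 (0.92 ± 0.48). All 3 were lowest in replicate 3 within both groups. Ccna2 had 3.64, 1.76 and 0.588 CPM in mCKO, against 0.734, 2.04 and 0.278 CPM in CTR1 (0.98 ± 0.85). Ccnb1 had 1.31, 0.754 and 0.168 CPM in mCKO, against 0.342, 0.783 and 0.0927 CPM in CTR1 (0.88 ± 0.89). Ccnb2 had 1.402, 0.754 and 0.8400 CPM in mCKO, against 0.734, 0.888 and 0.834 CPM in CTR1 (0.29 ± 0.35). Ccna2 and Ccnb1 spread widely within either group, with replicate 3 lowest in both. Plk1 had 1.36, 1.11 and 0.6300 CPM in mCKO, against 0.782, 0.783 and 0.139 CPM in CTR1 (0.86 ± 0.62). Aurka had 0.876, 0.402 and 0.6300 CPM in mCKO, against 0.4402, 1.097 and 0.649 CPM in CTR1 (-0.18 ± 0.47). Cdc20 had 1.67, 1.71 and 1.81 CPM in mCKO, against 1.52, 1.57 and 2.04 CPM in CTR1 (0.01 ± 0.24). For these 3 genes the groups overlapped as well. Cenpe had 1.01, 0.704 and 0.126 CPM in mCKO, against 0.4402, 0.731 and 0.232 CPM in CTR1 (0.39 ± 0.75). Tpx2 had 1.71, 1.16 and 1.22 CPM in mCKO, against 0.929, 1.57 and 0.695 CPM in CTR1 (0.36 ± 0.38). Kif20a had 2.19, 1.51 and 1.68 CPM in mCKO, against 1.52, 1.46 and 1.62 CPM in CTR1 (0.23 ± 0.25). These 3 overlapped between mCKO and CTR1. Kif23 had 3.81, 2.06 and 0.714 CPM in mCKO, against 1.37, 1.99 and 0.927 CPM in CTR1 (0.62 ± 0.61). Anln had 2.15, 1.51 and 1.13 CPM in mCKO, against 0.734, 2.04 and 1.67 CPM in CTR1 (0.11 ± 0.44). Prc1 had 2.15, 1.16 and 0.672 CPM in mCKO, against 0.587, 1.15 and 0.464 CPM in CTR1 (0.86 ± 0.55). Replicate 3 was the lowest mCKO library for each of them. Ect2 had 1.09, 0.553 and 0.924 CPM in mCKO, against 0.587, 0.418 and 0.417 CPM in CTR1 (0.85 ± 0.39). Nusap1 had 1.58, 0.754 and 0.714 CPM in mCKO, against 0.685, 0.522 and 0.185 CPM in CTR1 (1.13 ± 0.56). Cenpf had 45.96, 24.2 and 21.04 CPM in mCKO, against 15.3, 17.2 and 15.5 CPM in CTR1 (0.93 ± 0.30). Nusap1 and Cenpf had all mCKO libraries above all CTR1 libraries. Cenpf differed most in replicate 1, and its adjusted p was 0.43 without and 0.17 with the block. Bub1 had 0.307, 0.0503 and 0 CPM in mCKO, against 0.147, 0 and 0.0927 CPM in CTR1, and Birc5 had 1.23, 0.452 and 0.546 CPM in mCKO, against 0.293, 0.366 and 0.325 CPM in CTR1. Both were too low for the count filter, with Bub1 at 0 in 2 libraries.

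Replication genes in mCKO overlapped CTR1 in 17 of 18 cases, and none was called with or without the block. Mcm2 had 11.9, 10.6 and 9.87 CPM in mCKO, against 9.34, 12.3 and 7.32 CPM in CTR1 (0.16 ± 0.21). Mcm3 had 8.11, 6.84 and 10.7 CPM in mCKO, against 5.97, 7.89 and 8.25 CPM in CTR1 (0.21 ± 0.22). Mcm4 had 12.3, 12.6 and 10.1 CPM in mCKO, against 10.3, 10.5 and 12.5 CPM in CTR1 (0.07 ± 0.15). The helicase subunits overlapped between the groups throughout. Mcm5 had 8.24, 7.14 and 6.17 CPM in mCKO, against 6.36, 6.89 and 5.14 CPM in CTR1 (0.23 ± 0.18). Mcm6 had 12.5, 11.1 and 15.2 CPM in mCKO, against 9.68, 10.9 and 16.1 CPM in CTR1 (0.08 ± 0.23). Mcm7 had 11.7, 11.7 and 16.5 CPM in mCKO, against 10.6, 11.8 and 12.7 CPM in CTR1 (0.19 ± 0.18). Mcm3, Mcm6 and Mcm7 were highest in mCKO replicate 3. Mcm10 had 1.05, 1.61 and 0.294 CPM in mCKO, against 0.636, 0.575 and 0.0927 CPM in CTR1 (1.17 ± 0.80). Cdc6 had 1.09, 0.452 and 0.798 CPM in mCKO, against 0.734, 0.366 and 0.278 CPM in CTR1 (0.77 ± 0.51). Cdt1 had 2.45, 1.96 and 2.65 CPM in mCKO, against 1.08, 2.298 and 1.72 CPM in CTR1 (0.48 ± 0.33). Mcm10 had the highest log2 fold change of the class and was low in replicate 3 of both groups. Gins1 had 2.23, 1.71 and 1.97 CPM in mCKO, against 1.96, 2.04 and 2.46 CPM in CTR1 (-0.12 ± 0.23). Gins2 had 1.14, 0.955 and 1.05 CPM in mCKO, against 0.978, 0.679 and 0.649 CPM in CTR1 (0.45 ± 0.30). Cdc45 had 3.42, 2.66 and 3.53 CPM in mCKO, against 3.81, 3.08 and 3.801 CPM in CTR1 (-0.15 ± 0.21). Gins1 and Cdc45 had values below 0. Pcna had 39.04, 37.2 and 44.9 CPM in mCKO, against 36.8, 37.5 and 43.1 CPM in CTR1 (0.05 ± 0.12). Rrm1 had 23.00, 23.5 and 22.9 CPM in mCKO, against 19.8, 20.7 and 21.97 CPM in CTR1 (0.15 ± 0.09). Rrm2 had 3.505, 2.26 and 2.44 CPM in mCKO, against 1.96, 2.92 and 1.95 CPM in CTR1 (0.27 ± 0.29). Rrm1 was the only replication gene whose mCKO libraries all lay above CTR1. Tyms had 2.28, 2.36 and 2.94 CPM in mCKO, against 1.81, 1.31 and 2.36 CPM in CTR1 (0.46 ± 0.29). Tk1 had 3.505, 1.81 and 1.64 CPM in mCKO, against 1.91, 2.72 and 2.13 CPM in CTR1 (0.04 ± 0.36). Uhrf1 had 3.55, 2.96 and 1.64 CPM in mCKO, against 2.005, 3.08 and 1.11 CPM in CTR1 (0.40 ± 0.45). All 3 overlapped between the groups.

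Of the remaining regulators in mCKO, none was called. E2f1 had 1.75, 1.11 and 0.798 CPM in mCKO, against 1.17, 1.15 and 1.53 CPM in CTR1 (-0.08 ± 0.36). Foxm1 had 1.67, 1.06 and 0.714 CPM in mCKO, against 0.587, 1.72 and 0.834 CPM in CTR1 (0.13 ± 0.51). Chek1 had 0.789, 0.704 and 0.588 CPM in mCKO, against 0.8804, 0.418 and 0.278 CPM in CTR1 (0.40 ± 0.48). Each overlapped between the groups. Ccne2 had 2.23, 1.81 and 1.89 CPM in mCKO, against 2.79, 2.82 and 2.27 CPM in CTR1 (-0.41 ± 0.22). All 3 mCKO libraries lay below CTR1 for Ccne2, the only member with that order. In all, 7 of the 46 genes had every mCKO library above every CTR1 library and 1 had every library below, beside 7.69% and 7.3% of the genes tested. By class mean, the mitosis genes stood at 1.25, 0.59 and 0.02 in mCKO replicates 1, 2 and 3, against 0.02, 0.47 and -0.49 in CTR1. The replication genes stood at 0.41, 0.17 and 0.19 in mCKO, against -0.01, 0.10 and -0.09 in CTR1. The mitosis median of mCKO over CTR1 rested on replicate 1, since it was 0.26 without that library, and it was 0.53 without CTR1 replicate 3.

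Among the other lists in mCKO, with the block, few cell cycle genes were called. Of all genes tested, 7.32% were called higher and 6.45% lower with the block. The calls in the cell cycle lists are thus not shown to be particular to those lists. Of 38 other replication genes Pola2, a subunit of DNA polymerase alpha, rose (0.49 ± 0.12, adjusted p = 0.024) and Gmnn fell (-0.30 ± 0.08, adjusted p = 0.028). Of 35 other mitotic genes Spc25 rose (1.91 ± 0.44, adjusted p = 0.016) and Ncapd3 (-0.45 ± 0.09, adjusted p = 0.007) and Cenpa (-0.70 ± 0.12, adjusted p = 0.0081) fell. Among 24 genes of the inhibitor list Cdkn1a, which encodes p21, rose (1.04 ± 0.18, adjusted p = 0.03), as did Ccng1 (0.38 ± 0.06, adjusted p = 0.0024), and Gadd45g fell (-0.71 ± 0.12, adjusted p = 0.003). Cdk6 (0.47 ± 0.10, adjusted p = 0.011) and Ccnd3 (0.34 ± 0.07, adjusted p = 0.012) rose among 11 early cyclins, kinases and activators. Of the marker lists, 9 of 10 macrophage and 4 of 8 fibroblast markers rose and 5 of 8 cardiomyocyte markers fell with the block, and none without it. Macrophage sums were 709 to 1311 CPM in mCKO, against 527 to 796 CPM in CTR1, and the highest library of either group was replicate 3, the library that was low for most mitosis genes. The part of these markers in the result was not tested.

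The difference between the models was tested itself, as the mCKO log2 fold change minus the iCKO log2 fold change over all 12 libraries. It was below 0 for 16 of the 48 genes and above 0 for 1 at an adjusted p under 0.05 in edgeR, beside 9.88% and 11% of the 13871 genes tested. With the replicate block within each experiment the counts were 18 and 1, beside 13.3% and 14.8% of genes. Limma-voom called 5 below 0, beside 8.93% of genes, and 1 above. The replication genes with a smaller change in mCKO than in iCKO were Mcm3 (-1.198 ± 0.36), Mcm5 (-1.95 ± 0.31), Mcm6 (-1.76 ± 0.29), Tyms (-1.804 ± 0.47) and Gins2 (-2.48 ± 0.55). The mitosis genes were Cdk1 (-2.71 ± 0.76), Prc1 (-2.54 ± 0.83), Tpx2 (-2.51 ± 0.62), Ccnb2 (-2.37 ± 0.70), Anln (-2.299 ± 0.60), Kif20a (-2.12 ± 0.55), Aurka (-2.05 ± 0.64) and Ect2 (-1.85 ± 0.53), and the regulators E2f1 (-2.55 ± 0.51), Foxm1 (-2.11 ± 0.64) and Ccne2 (-1.11 ± 0.35). Cenpf alone went the other way, with 2.299 ± 0.53 (adjusted p = 0.011): it fell in iCKO and was not called in mCKO, where its value was above 0. Mki67, Top2a, Ccna2 and Plk1 rose by more than 2 in iCKO and were not called in mCKO. Without the block they did not pass the edgeR test of the difference (adjusted p 0.073 to 0.38). With the block Top2a passed it (-2.21 ± 0.44, adjusted p = 0.0069) and Mki67 did not (adjusted p = 0.071). Of the 17 calls, 9 were made in each of the 12 fits that left out a library: Mcm5, Mcm6, Tyms, Gins2, Tpx2, Kif20a, Anln, Cenpf and E2f1. The 2 models also differ in when the Cre acts, in tamoxifen and in the time since deletion, which cannot be told apart here.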

How the data were processed

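Trizol RNA was made into libraries with a TruSeq stranded mRNA kit, per the labels' protocols. HISAT2, DESeq and the build GRCm38 are named in the submitters' processing notes, without versions or roles, and neither the counting tool nor its strand setting is stated there. The authors deposited whole-number gene counts in 2 tables, mCKO with CTR1 (17260 genes) and iCKO with CTR2 (17325 genes). The 48 genes, their roles, the other lists and the tests were chosen with earlier results of these data known.

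From the deposited counts, CPM on TMM library sizes was computed, and log2 CPM with a prior count of 2. The filterByExpr rule (at least 10 counts in enough libraries, at least 15 in all) chose the genes, which were tested with edgeR 4.0.16 quasi-likelihood fits in R 4.3.3, robust, two-sided, with Benjamini-Hochberg adjustment over all genes tested and calls at 0.05. The standard error is the absolute log2 fold change over the root of the F statistic. Each experiment was fitted apart, and the difference between models in 1 fit of the genes in both tables. DESeq2 1.42.0, limma 3.58.1 (voom), other scalings and filters, left-out libraries and the replicate block were alternatives. The method was tested on simulated data.

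The numbers were taken to pair samples where every same-numbered pair correlated over 0.1 in deviations from group means. In mCKO and CTR1 the correlations were 0.464, 0.532 and 0.823, so blocked values are given. Libraries 1 and 2 also correlated across numbers (0.529 and 0.553), so the data pair replicate 3. Deviations within a group cancel out, so a shift shared by replicate 3 can by itself raise the correlations of 1 and 2. The rule therefore could not show that 1 and 2 are pairs, and the blocked calls carry this limit. In iCKO and CTR2 they were 0.0583, -0.0896 and -0.161. What a number marks is not labelled. No 2 libraries of a group agreed within sampling noise (lowest chi-square per degree of freedom 6.25). All members may be named, with values per library for those called. Of other lists, the called genes with the 4 smallest adjusted p were named, and others after their values were seen. Promoter windows are RefSeq's on GRCm38, and exon overlaps come from GENCODE M21. Promoters of 10 members and any proteins were not used here.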

Additional observations from a re-analysis of the deposited data

Results flagged for a closer look

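For 17 genes the fold change differed between the 2 models by the test of the difference itself, given as the mCKO minus the iCKO log2 fold change. Among replication genes these were Mcm3 (-1.198), Mcm5 (-1.95), Mcm6 (-1.76), Tyms (-1.804) and Gins2 (-2.48). Among mitosis genes they were Ccnb2 (-2.37), Cdk1 (-2.71), Aurka (-2.05), Tpx2 (-2.51), Kif20a (-2.12), Anln (-2.299), Prc1 (-2.54), Ect2 (-1.85) and, with the opposite sign, Cenpf (2.299). The regulators were Ccne2 (-1.11), E2f1 (-2.55) and Foxm1 (-2.11). Adjusted p in edgeR ran from 0.0014 for Mcm5 to 0.049 for Prc1. Exons of Gins2, Kif20a, Ccne2 and Prc1 overlap exons of genes on the opposite strand, and whether counting used the strand is not given. Causes of these differences were not tested.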

How the results depend on the processing

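In iCKO the count of genes called higher was 34 to 43 when a library was left out, and 42 to 46 under the other scalings, filters, tests and the replicate block. The count called lower was 0 to 1 when a library was left out. The medians in iCKO stayed at 1.29 to 1.69 for replication and 2.17 to 2.74 for mitosis genes when a library was left out. In mCKO the count called higher was 0 when any single library was left out without the block, 6 with the replicate block, 3 with the block without the pair of replicate 1, 5 without the pair of replicate 2 and 0 without the pair of replicate 3. For the blocked fits without a pair, the share of all genes called is not given here. The mCKO medians were 0.13 to 0.27 for replication and 0.26 to 1.16 for mitosis genes when a library was left out, and the mitosis median was 0.20 with the block without the pair of replicate 1. Ccnd1 in mCKO changed sign without mCKO replicate 3 and without the block (-0.054, adjusted p = 0.96, not called), with values of -0.054 to 0.51 over the left-out libraries. In the difference between models, 9 to 25 genes were called below 0 and 1 above 0 when a library was left out. Limma-voom called 5 below 0, the block without the pair of replicate 2 called 6, and without that of replicate 3 it called 8, while without that of replicate 1 it called 0 above 0. In iCKO the numbers did not pair the libraries, and the block called 42 genes higher and 1 lower. Many mitosis genes lay under 2 CPM in controls, so their fold changes rest on few counts. The causes of these shifts were not tested, and each fit that leaves out a library also has fewer libraries.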
